A study of Rattus norvegicus with 6 samples.

Results

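The chemokines measured here are 10 genes out of 28282 gene symbols in the count tables: Cxcl1, Cxcl2, Ccl2, Cxcl9, Cxcl10, Cxcl16, Cx3cl1, Ccl25, Ccl20 and Ccl28. They were chosen by name as chemokines of the inflamed ileum, with earlier results of these data known, and all 10 were listed in every library. Nuclei came from the ileum of wild-type male Sprague-Dawley rats that were 6 weeks old and had acclimatised for 7 days. In 3 rats severe acute pancreatitis (SAP) was induced under pentobarbital by retrograde infusion of 3% sodium taurocholate at 0.1 mL per 100 g and 0.1 mL per min, with the duct clamped for 5 min. The 3 control rats (CON) had the abdomen opened under the same anaesthetic without infusion. All 6 were sampled at 24 h, fasted after surgery, away from Peyer's patches and with mesenteric fat trimmed. Anaesthesia and opening of the abdomen were thus shared by both groups.

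Chemokines are small secreted proteins that set up gradients along which leukocytes migrate, and they act through G protein-coupled receptors. Cxcl1 and Cxcl2 attract neutrophils through Cxcr2, Ccl2 attracts monocytes through Ccr2, and the interferon-inducible Cxcl9 and Cxcl10 attract T cells through Cxcr3. Cxcl16 and Cx3cl1 are made as membrane-anchored proteins that proteases can shed. In the gut, Ccl25 from the small intestinal epithelium draws Ccr9-bearing lymphocytes, Ccl20 draws Ccr6-bearing cells, and Ccl28 draws Ccr10-bearing plasma cells.

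Promoter sequence is shown for Cxcl1, Ccl20, Cxcl16 and Ccl28, the genes whose CPM over all nuclei, by library totals, did not overlap between the groups. It is also shown for Cxcl2, which had the largest log2 fold change of the 10 over all nuclei. The share of all genes apart by library totals is not given. On the TMM-normalized scale only Cxcl1 of these genes was apart. There 4.9% of all genes were apart with SAP above CON and 9.06% with SAP below CON. These are the 150 bases before the start of each gene, from the RefSeq promoter table of build GRCr8, which is not the build named in the processing notes for these files. Capitals mark matches of the classical κB consensus, the motif of NF-κB, on either strand.
Cxcl1, chr14:17479322-17479471, minus strand: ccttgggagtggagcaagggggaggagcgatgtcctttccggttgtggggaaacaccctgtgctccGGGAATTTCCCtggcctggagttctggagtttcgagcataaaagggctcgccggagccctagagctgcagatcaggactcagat
Cxcl2, chr14:17467256-17467405, minus strand: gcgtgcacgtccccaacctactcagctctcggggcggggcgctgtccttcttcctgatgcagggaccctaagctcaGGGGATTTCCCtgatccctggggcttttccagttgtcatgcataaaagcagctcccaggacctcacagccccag
Ccl20, chr9:91837009-91837158, plus strand: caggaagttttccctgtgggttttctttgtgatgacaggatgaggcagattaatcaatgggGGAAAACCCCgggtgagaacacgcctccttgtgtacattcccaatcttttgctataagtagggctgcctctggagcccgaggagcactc
Cxcl16, chr10:55669951-55670100, minus strand: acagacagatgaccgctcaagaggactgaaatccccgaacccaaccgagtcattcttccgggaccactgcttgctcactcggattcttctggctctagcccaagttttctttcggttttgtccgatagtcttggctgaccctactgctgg
Ccl28, chr2:53333921-53334070, plus strand: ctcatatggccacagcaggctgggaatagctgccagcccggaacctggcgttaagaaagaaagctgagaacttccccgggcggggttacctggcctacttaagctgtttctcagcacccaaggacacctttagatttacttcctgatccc

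Promoters of 9 of the 10 genes were in the table, and Ccl2 was not. In the 250 bases before the start, Cxcl1 and Cxcl2 each held 2 overlapping κB matches in 1 run of letters, and Cxcl10 and Ccl20 held 1 each, while Cxcl9, Cxcl16, Cx3cl1, Ccl25 and Ccl28 held none. Of 33360 distinct rat promoters of that length, 3.55% held a match. The core of the interferon-stimulated response element (ISRE), searched by its consensus on both strands, was present in Cxcl10 alone among the 9, and in 3.41% of the promoters. A match describes letters in this window and is not a measured binding site.

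Of 90461 barcodes, 40970 had at least 1200 UMIs (unique molecular identifiers, 1 per captured transcript), at least 500 genes and at most 5% mitochondrial UMIs, and these nuclei were used. Totals per library lay between 5549260 and 28771508 UMIs. The lowest total and the highest median mitochondrial share, 1.84%, belonged to SAP 1, in which 384 of 3189 nuclei had at most 1%. The libraries CON 2 and SAP 1 listed barcodes under 1000 UMIs and the others did not. Levels are CPM, the UMIs of a gene per 1000000 UMIs of the nuclei in question. Nuclei were grouped into 18 classes by clustering without any chemokine or chemokine receptor gene, and a class was tested where each library had at least 10 nuclei, which held for 15. Classes are called by marker genes, so "SMC-like" nuclei carried Myh11, Actg2, Des and the other smooth muscle markers, 7 of 7 above their level elsewhere. Counts were summed per library and tested with edgeR's quasi-likelihood fit. A gene was called where its adjusted p was below 0.05 and its log2 fold change was 0.5 or more in size.

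Over all nuclei, none of the 10 chemokines was called, and edgeR called 0% of the 19187 genes tested. At an unadjusted p under 0.05 (edgeR), 2 of the 10 passed, against 8.43% of all genes (1618). DESeq2 called 2 of the 10, Cxcl1 and Cxcl2, and 193 of 28092 genes in all. Estimates were positive for 8 of 10 and negative for Cxcl9 and Ccl28. The median log2 fold change over the 10 was 0.77, against 0.02 over all genes tested. Since the 10 were chosen with earlier results of these data known, such contrasts with all genes are descriptions. On the TMM-normalized scale 1 of the 10 did not overlap between groups with SAP above CON, namely Cxcl1, against 4.9% of all genes, and none with SAP below CON, against 9.06%. Over all epithelial nuclei 8 of the 10 were tested and none was called (edgeR, 0% of genes called). DESeq2 also called none of the 10 there, and 265 of 27337 genes in all.

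**Figure D1:**
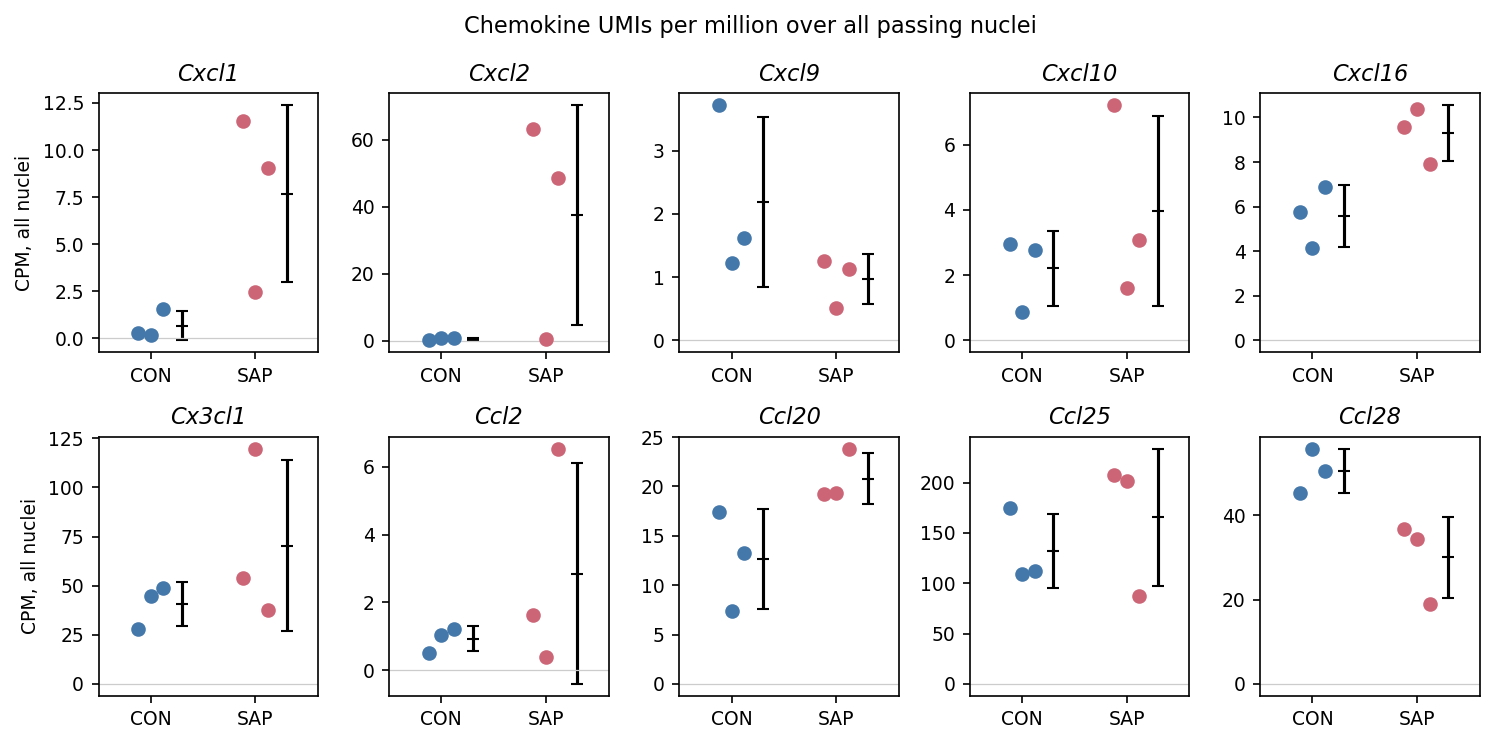
CPM over all passing nuclei for each chemokine, on linear axes, 1 point per library in the order CON 1 to 3 and SAP 1 to 3, with the group mean and SD (n = 3) as a bar beside the points. Cxcl1 lay between 0.175 and 1.57 CPM in CON and between 2.45 and 11.5 CPM in SAP, while Cxcl2 was high in SAP 1 and SAP 3 only.

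The classes in which each chemokine was highest differed. Among the 15 tested classes the highest mean CPM over the 6 libraries was in SMC-like nuclei for Cxcl1, in Enterocyte-like nuclei for Cx3cl1, Ccl20 and Ccl25, and in Stem/TA-like nuclei (stem and transit-amplifying markers) for Ccl28. It was in Macrophage-like nuclei for Cxcl2, Cxcl10 and Cxcl16, and in Fibroblast-like nuclei for Cxcl9 and Ccl2. Several of these orders were within the spread over libraries. Ccl2 was at 10.0 ± 10.5 CPM in Fibroblast-like and 9.99 ± 11.3 in SMC-like nuclei (SD, 6 libraries), Cxcl2 was above its next class in 2 of 6 libraries, and Cxcl9 and Cxcl10 in 3 of 6. The highest class stood 37.9 times above the median class for Cxcl1, 8.43 times for Ccl2, 7.17 times for Cxcl16 and 6.36 times for Ccl20. For Cx3cl1, Ccl28 and Ccl25 this ratio was 1.86, 2.08 and 2.94. Each of the 10 genes except Cxcl9 had UMIs in all 15 classes. These levels are descriptions, since classes of the same libraries share their free RNA.

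**Figure D2:**
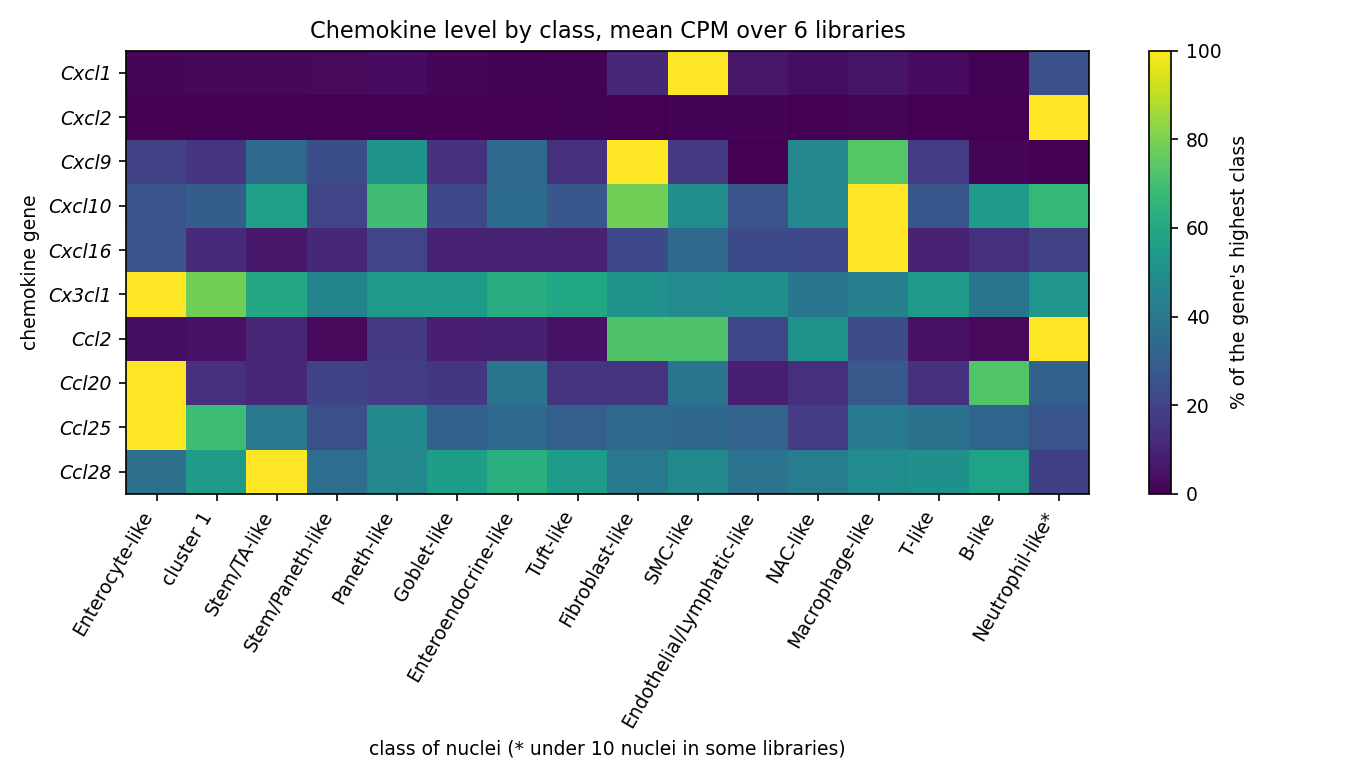
Mean CPM over the 6 libraries in each class, as a percentage of the class with the highest mean for that gene. Cxcl1 was concentrated in SMC-like and Cxcl2 in Neutrophil-like nuclei, whereas Cx3cl1, Ccl25 and Ccl28 were spread over the classes. Ccl2 in Neutrophil-like nuclei rests on 6 UMIs.

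Cxcl1 was higher in SMC-like nuclei of SAP rats, and this was the only call among 47 tests of the 10 genes in the 15 classes, where 0.0236% of all tests were called. Cxcl1 stood at 4.48, 0 and 8.16 CPM in SMC-like nuclei of CON 1, 2 and 3, and at 242, 60.4 and 88.4 CPM in SAP 1, 2 and 3. In SAP 1 a single nucleus held 20 of the 42 Cxcl1 UMIs. The most in 1 nucleus was 6 in SAP 2 and in SAP 3, of 20 and 77 UMIs. Each SAP library stood above each CON library, as for 7.99% of the genes tested in this class on the TMM-normalized scale. Means were 4.21 ± 4.09 in CON and 130 ± 97.8 in SAP (SD, n = 3 each; exact permutation test, two-sided, p = 0.1, the smallest that 3 against 3 allows). The log2 fold change was 4.46 (SE 0.72; edgeR, adjusted p = 0.0490), where 0.201% of 8960 genes tested in this class were called. SMC-like nuclei held 151 of 319 Cxcl1 UMIs, or 47.3% (95% exact binomial interval 41.7 to 53.0, treating UMIs as independent), with 3.4% of all UMIs.

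The share of SMC-like nuclei with a Cxcl1 UMI was 9 of 783 in CON, or 1.15% (0.527 to 2.17), and 55 of 545 in SAP, or 10.1% (7.69 to 12.9), as exact binomial intervals of counting error. In Enterocyte-like nuclei it was 0 of 3816 in CON, which allows up to 0.0966%, and 0.295% in SAP. In T-like nuclei it was 1 of 1754 in CON and 16 of 1550 in SAP, or 1.03%. In B-like nuclei it was 0 of 421 in CON and 4 of 872 in SAP, or 0.459%. The share was not particular to SMC-like nuclei. Among 79 Neutrophil-like SAP nuclei, 7 carried a Cxcl1 UMI, or 8.86% (3.64 to 17.4), which overlaps the SMC-like interval. None were found among the 58 Neutrophil-like CON nuclei, which allows up to 6.16% (exact binomial upper bound). Fibroblast-like shares were lower, at 0.813% for CON and 2.39% for SAP. Median depths were 1778 and 1816 UMIs in the SMC-like nuclei of CON and SAP and 1879.5 and 1915 in the Enterocyte-like nuclei. Thinned to 1200 UMIs per nucleus, the SMC-like shares were 0.511% and 6.97%, with no nucleus left out. By library, 13 of 92, 11 of 88 and 31 of 365 SMC-like nuclei had a Cxcl1 UMI in SAP 1, 2 and 3, against 2 of 125, 0 of 142 and 7 of 516 in CON.

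The call was close to the threshold. Without 1 library at a time its adjusted p (edgeR) was 0.103 without CON 1, 0.222 without CON 2, 0.144 without SAP 1 and 0.0577 without SAP 2, and it was kept without CON 3 (0.0210) and without SAP 3 (0.0498). The log2 fold change lay between 3.69 and 5.21 over these 6 fits. At clustering resolutions of 0.4 and 1.2 the adjusted p was 0.239 and 0.0536. Between the 2 libraries that listed shallow barcodes, Cxcl1 was 0 in CON 2 and 242 CPM in SAP 1, and among the others it was 4.48 and 8.16 in CON 1 and 3 and 60.4 and 88.4 in SAP 2 and 3.

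Neutrophil markers were also higher in SMC-like nuclei of the SAP libraries. The 6 markers summed to between 0 and 16.4 CPM in CON and to 1256, 115 and 174 CPM in SAP 1, 2 and 3. In Enterocyte-like nuclei the sum was at most 9.49 CPM in CON and 156, 5.80 and 40.2 CPM in SAP. Macrophage-like nuclei were at 19.2 CPM or less in CON and at 373, 10.8 and 83.1 CPM in SAP. In each SAP library the SMC-like sum lay above that of every other class except Neutrophil-like. Within SMC-like nuclei S100a8, a calcium-binding protein abundant in neutrophils, stood at 1.49, 0 and 3.63 CPM in CON and at 593, 60.4 and 94.1 CPM in SAP. S100a9, its partner, was at 5.97, 0 and 6.35 CPM in CON and at 622, 42.3 and 63.1 CPM in SAP. Il1r2 lay between 0 and 1.81 CPM in CON and between 9.18 and 17.3 in SAP. Csf3r and Mmp9 overlapped between the groups, and Retnlg was at 0 in the 3 SAP libraries. Among SAP nuclei of this class, pooled over the 3 libraries, the 55 with a Cxcl1 UMI carried S100a8 at 742 CPM. The other 490 were at 41.2 CPM, and median depths were 2546 and 1790.5 UMIs. SAP 1, where S100a8 was highest, gave 13 of the 55. Values by library are not given for this split, so differences between rats and between nuclei cannot be told apart in it. Of the 7 smooth muscle markers, Tagln, Des and Cnn1 were higher in the nuclei with a Cxcl1 UMI (718 against 385, 950 against 516 and 605 against 246 CPM), and Myh11 (1914 against 2209), Actg2 (643 against 822), Lmod1 (203 against 270) and Acta2 (61.4 against 84.2) were lower. Among genes of other stromal cells, Ano1 (175 against 48.9), Etv1 (146 against 68.7), Dcn (113 against 43.8), Pdgfra, Col1a1 and Rgs5 were higher there too, and Kit, Pdgfrb and Notch3 were lower. In SMC-like nuclei without any UMI of the 6 neutrophil markers, a subset chosen after seeing the data, Cxcl1 was at 1.72, 0 and 7.55 CPM in CON and at 298, 46.8 and 63.1 CPM in SAP, without overlap. The SAP mean there was 136 ± 141 CPM (SD, n = 3). This subset kept 60 of 92, 74 of 88 and 325 of 365 nuclei of SAP 1, 2 and 3, with 29 of 42, 12 of 20 and 45 of 77 Cxcl1 UMIs. At this depth a nucleus without a marker UMI may still hold neutrophil RNA, whose part in the Cxcl1 counts was not tested. In the SMC-like nuclei of SAP 1, 2 and 3, Cxcl1 had 42, 20 and 77 UMIs and Cxcl2 12, 2 and 4, whereas in the Neutrophil-like nuclei of the same libraries Cxcl1 had 3, 0 and 8 UMIs and Cxcl2 253, 0 and 725.

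**Figure D3:**
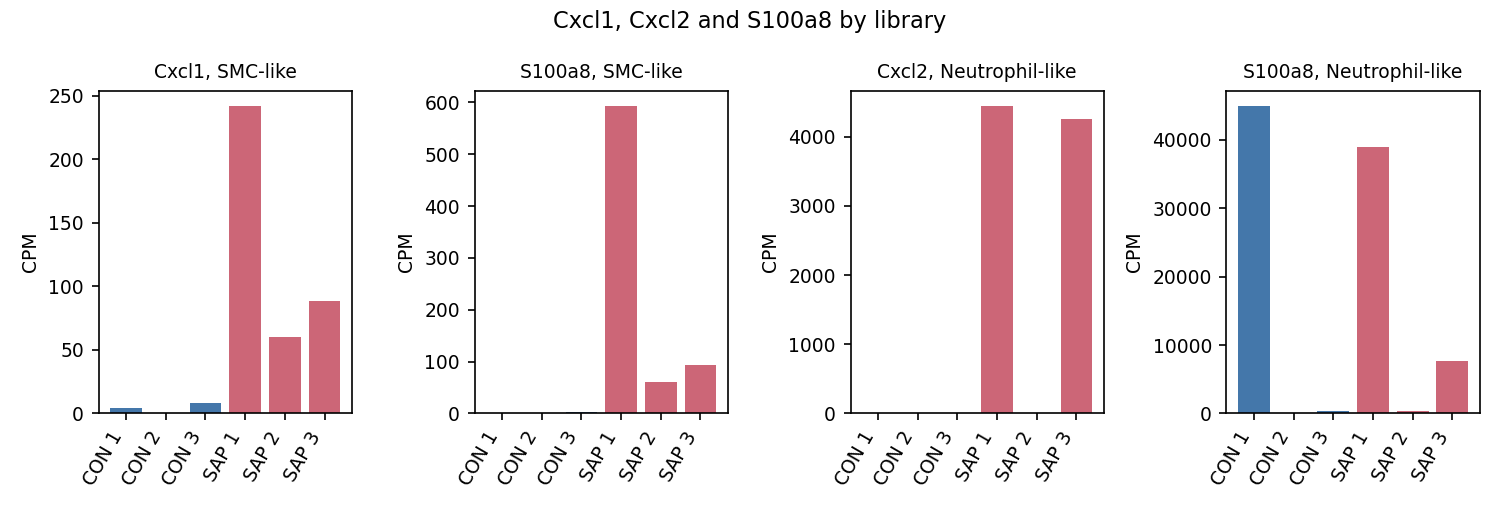
CPM by library (bars from 0, linear axes) of Cxcl1 and S100a8 in SMC-like nuclei and of Cxcl2 and S100a8 in Neutrophil-like nuclei. Cxcl1 in SMC-like nuclei was at 60.4 CPM or more in each SAP library, and Cxcl2 in Neutrophil-like nuclei was present in SAP 1 and SAP 3 but not in CON 1, where S100a8 was at 44959 CPM.

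Fibroblast-like nuclei, next in the order of the 15 tested classes, held 38 Cxcl1 UMIs, at 0, 5.19 and 6.17 CPM in CON and 7.68, 7.23 and 19.0 CPM in SAP. Their mean over the 6 libraries was 7.55 ± 6.27 CPM (SD), and SMC-like nuclei were above them in 5 of 6 libraries. The next 2 tested classes, Endothelial/Lymphatic-like at 4.46 ± 5.37 and Macrophage-like at 3.80 ± 7.00 CPM, did not differ beyond their spread. Neutrophil-like nuclei, outside the tested classes, held 11 Cxcl1 UMIs, or 3.45%, in 0.358% of all UMIs. Among single classes Cxcl1 passed the filter on low counts in SMC-like nuclei alone, so its change was not tested in the others. Over all epithelial nuclei it was at 0.0877, 0.102 and 0.845 CPM in CON and 3.58, 0.809 and 2.26 CPM in SAP, on 15 and 53 UMIs. There the log2 fold change was 2.71 (SE 0.93; edgeR, adjusted p = 0.406), and the groups overlapped by library totals but not after TMM normalization. Whether the change differed between SMC-like and epithelial nuclei was not tested. The genes whose pattern over the 18 classes was most like that of Cxcl1 were Cald1 (Pearson r = 0.91), Cavin3 (0.89) and Flna (0.88), each highest in SMC-like nuclei. These correlations are over classes of the same 6 libraries and are descriptions.

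Cxcl2 was counted mostly in a small class, the Neutrophil-like nuclei, with 978 of 1329 UMIs, or 73.6% (exact binomial interval 71.1 to 75.9), in 0.358% of all UMIs. The interval treats UMIs as independent, but the 978 came from 35 nuclei, with 253 in SAP 1 and 725 in SAP 3. The Neutrophil-like class had 9, 10 and 39 nuclei in CON and 27, 8 and 44 in SAP, too few to test. Its 6 of 6 markers were above their level elsewhere, but S100a8 was at 44959, 52.1 and 351 CPM in CON 1, 2 and 3 and at 38962, 307 and 7740 CPM in SAP 1, 2 and 3. The name is therefore borne by CON 1, SAP 1 and SAP 3, and the nuclei of CON 2, CON 3 and SAP 2 had little of the defining markers.

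Cxcl2 stood at 4446, 0 and 4254 CPM in these nuclei in SAP 1, 2 and 3 and at 0 in each CON library. It was found in 9 of 27 nuclei of SAP 1 and in 26 of 44 of SAP 3, with up to 138 UMIs in 1 nucleus. Of the 9 nuclei of CON 1 none had a UMI, and so few nuclei allow a share of up to 33.6% (exact binomial upper bound). Cxcl3, a close relative that also acts through Cxcr2, was named after its values were seen. It had 203 UMIs in 20 of 79 Neutrophil-like nuclei of SAP, in 5 of 27, 0 of 8 and 15 of 44 nuclei of SAP 1, 2 and 3. In CON it was at 0 of 58 nuclei, of which 9 were from CON 1. Over all nuclei Cxcl3 was at 0.0890, 5.63 and 0.537 TMM-normalized CPM in CON and at 12.1, 0.921 and 9.19 in SAP, so the groups overlapped. Cxcr2 itself had 40 of its 62 UMIs in this class.

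Over all nuclei Cxcl2 was at 0.104, 0.789 and 0.811 CPM in CON and at 63.3, 0.516 and 48.5 CPM in SAP. The groups overlapped because SAP 2 lay within the CON range, and the log2 fold change of 6.20 (SE 1.49) had an adjusted p of 0.545 with edgeR and 0.0111 with DESeq2. Neutrophil-like nuclei were 0.0973, 0.160 and 0.464% of CON and 0.847, 0.134 and 0.557% of SAP nuclei. Outside this class Cxcl2 was at 17.8 CPM in SAP 1 and 11.3 CPM in SAP 3, and in Enterocyte-like nuclei 1 of 3816 carried a UMI in CON and 50 of 4744 in SAP. Macrophage-like nuclei, the highest of the tested classes, held 17 Cxcl2 UMIs, all in SAP, at 74.7, 5.42 and 25.1 CPM. The genes most like Cxcl2 over the 18 classes were Tspo (r = 0.93), Stx11 (0.92) and Tf (0.90), each highest in Neutrophil-like nuclei.

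Ccl2 was sparse, with 193 UMIs in all, of which 59 (30.6%) were in Fibroblast-like and 25 (13.0%) in SMC-like nuclei. Fibroblast-like nuclei held it at 13.7, 10.4 and 7.93 CPM in CON and at 0, 0 and 28.2 CPM in SAP, so the SAP libraries lay on both sides of CON. In SMC-like nuclei it was at 2.98, 0 and 0 CPM in CON and at 28.8, 12.1 and 16.1 CPM in SAP, without overlap, on 2 and 23 UMIs. Of the genes tested in SMC-like nuclei, 7.99% lay apart with SAP above CON on the TMM-normalized scale. Ccl2 was not among those tested, since it passed the filter on low counts in none of the 15 classes. Over all nuclei its log2 fold change was 1.49 (SE 0.81; edgeR, adjusted p = 0.672), and 0.25 without SAP 3.

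Cxcl9 and Cxcl10 were at the low end of detection. Cxcl9 had 190 UMIs, of which 65 were in Paneth-like nuclei and 59 of those in CON 1 alone. In Fibroblast-like nuclei, its highest class by mean CPM, it was at 15.4, 5.19 and 6.17 CPM in CON and at 0, 3.61 and 2.12 CPM in SAP, on 17 and 4 UMIs. Over all nuclei Cxcl9 was at 3.72, 1.23 and 1.62 CPM in CON and 1.26, 0.516 and 1.13 CPM in SAP (log2 fold change -1.41, SE 0.72; edgeR, adjusted p = 0.653), and the estimate was -0.43 without CON 1. Cxcl10 had 275 UMIs, of which 183 were in epithelial nuclei, with 52 in Stem/TA-like and 41 each in Enterocyte-like and Paneth-like nuclei. By mean CPM over the 6 libraries the first 3 classes were Macrophage-like (8.04 ± 9.53, SD, on 15 UMIs), Fibroblast-like (6.29 ± 5.77) and Paneth-like (5.58 ± 3.88), which did not differ beyond their spread. Over all nuclei it was at 2.95, 0.877 and 2.79 CPM in CON and 7.21, 1.61 and 3.09 CPM in SAP (log2 fold change 0.79, SE 0.75; edgeR, adjusted p = 0.841), and without SAP 1 the estimate was -0.12. Its most similar genes over classes were Nsmce3 (r = 0.85), Prelid1 (0.83) and Llph (0.82).

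Cxcl16, the membrane-bound ligand of Cxcr6, was highest in Macrophage-like nuclei at 42.0 ± 21.3 CPM (SD, 6 libraries), above SMC-like nuclei at 14.4 ± 11.8 CPM in 5 of 6 libraries. Macrophage-like nuclei held it at 47.5, 64.9 and 57.5 CPM in CON and at 49.8, 10.9 and 21.2 CPM in SAP, so SAP 1 lay within the CON range and the other 2 below it. There the log2 fold change was -1.40 (SE 0.52; edgeR, adjusted p = 0.953), on 61 and 15 UMIs. Over all nuclei the direction was the other way, at 5.77, 4.12 and 6.89 CPM in CON and 9.55, 10.4 and 7.92 CPM in SAP. The log2 fold change over all nuclei was 0.74 (SE 0.41; edgeR, adjusted p = 0.678), and the groups were apart by library totals but overlapped after TMM normalization. Enterocyte-like nuclei held 260 of its 717 UMIs and were 16.1% ± 1.2 of CON and 29.6% ± 13.3 of SAP nuclei (SD, n = 3 each). The part of that share in the level over all nuclei was not tested. Clec4a3, LOC120098902 and LOC497796 were the genes most like it over classes (r = 0.86, 0.83 and 0.82), each highest in Macrophage-like nuclei.

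Cx3cl1, the membrane-bound ligand of Cx3cr1, was highest in Enterocyte-like nuclei at 81.6 ± 35.8 CPM, followed by the unnamed cluster 1 at 63.9 ± 31.1 CPM, whose nearest named cluster was enterocyte. Enterocyte-like nuclei were at 52.4, 50.6 and 89.8 CPM in CON and at 75.4, 148 and 73.3 CPM in SAP, with SAP 2 highest and the groups overlapping. Its log2 fold change was positive in 11 of 11 classes tested, between 0.49 and 1.37, and none was called (edgeR, lowest adjusted p = 0.344). These classes come from the same 6 rats and share free RNA, so they are not independent. Without SAP 2 the log2 fold change was 0.25 in Enterocyte-like nuclei, against 0.67 with it, and 0.20 over all nuclei, against 0.91. In T-like nuclei Cx3cl1 was at 31.0, 36.7 and 41.8 CPM in CON and 31.1, 94.7 and 33.9 CPM in SAP, so the high value of SAP 2 was present there too. Relative to all other nuclei of the same library, the Enterocyte-like level was 2.21, 1.16 and 2.30 times as high in CON and 1.73, 1.49 and 2.42 times in SAP, which overlapped. Lmo7, LOC102552377 and LOC120099805 were most like it over classes (r = 0.88 each).

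Ccl25 had the highest UMI total of the 10, 14450, with 44.3% in Enterocyte-like nuclei and 12.2% in cluster 1. Enterocyte-like nuclei were at 632, 207 and 206 CPM in CON and at 324, 209 and 150 CPM in SAP. CON 1 stood far above the rest, and the other CON libraries lay inside the SAP range. Its log2 fold change was -0.70 (SE 0.65; edgeR, adjusted p = 0.805), and 0.41 without CON 1. It was positive in the other 13 of 14 classes tested, up to 1.12 in Tuft-like nuclei, with none called (edgeR, lowest adjusted p = 0.445). The difference between Enterocyte-like and other classes was not tested. Relative to the other nuclei of the same library, the Enterocyte-like level was 6.95, 2.29 and 2.31 times as high in CON and 2.11, 1.07 and 2.03 times in SAP. These ratios did not overlap between the groups, by a small margin of 2.29 in CON 2 against 2.11 in SAP 1. The share of all genes apart on this ratio is not given. Cluster 1 was counted among the other nuclei. The other nuclei were at 91.0, 90.4 and 88.9 CPM in CON and at 154, 196 and 73.9 CPM in SAP, with 2 SAP libraries above CON and SAP 3 below. In T-like nuclei, which are not known to make Ccl25, 19.7% carried a UMI in CON and 21.7% in SAP, against 40.9% and 33.3% of Enterocyte-like nuclei. Median depths were 1963 and 1909 UMIs in T-like and 1879.5 and 1915 in Enterocyte-like nuclei of CON and SAP. Slc27a4 (r = 0.90), a fatty acid transporter, Sult2b1 (0.88) and Slc26a3 (0.88), an anion exchanger, followed its pattern over classes most closely, each highest in Enterocyte-like nuclei.

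Ccl20 was highest in Enterocyte-like nuclei, with 1100 of 1717 UMIs, or 64.1% (exact binomial interval 61.7 to 66.3, treating UMIs as independent). These nuclei were at 85.8, 18.1 and 35.3 CPM in CON and at 40.8, 30.7 and 83.0 CPM in SAP, so the groups overlapped widely. The estimated log2 fold change was -0.04 (SE 0.68; edgeR, adjusted p = 0.994). UMIs were uneven among nuclei, with 6.16% of Enterocyte-like nuclei positive in CON and 5.97% in SAP and up to 114 UMIs in 1 nucleus, whereas 1.88% and 2.06% of T-like nuclei had a UMI. The next class by mean, B-like at 35.6 ± 51.5 CPM, rests on 33 UMIs. In cluster 1 Ccl20 was at 1.86, 2.52 and 7.22 CPM in CON and at 6.45, 11.7 and 9.95 CPM in SAP, with a log2 fold change of 1.43 (SE 0.59; edgeR, adjusted p = 0.310). Over all nuclei it was at 17.4, 7.37 and 13.3 CPM in CON and 19.3, 19.3 and 23.8 CPM in SAP (log2 fold change 0.62, SE 0.43, or 0.29 without CON 2 and 1.22 without CON 1; edgeR, adjusted p = 0.754), apart by library totals but overlapping after TMM normalization. Naprt and Tmem127 were among the genes most like it over classes (r = 0.80 each).

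Estimates for Ccl28 were negative in each of the 12 classes tested, with log2 fold changes between -1.75 in B-like and -0.20 in Goblet-like nuclei, and none was called (edgeR, lowest adjusted p = 0.352). The B-like estimate rests on 95 UMIs in all, with 29, 30 and 813 nuclei in SAP 1, 2 and 3. On the TMM-normalized scale each SAP library lay below each CON library in 6 of the 12 classes, B-like among them, against 7.86% of all gene tests in the 15 classes. The 12 classes come from the same 6 rats and share free RNA, so they are not independent. Stem/TA-like nuclei, the highest class at 75.4 ± 17.9 CPM and above the next in 6 of 6 libraries, were at 93.9, 71.7 and 93.9 CPM in CON and at 82.2, 60.1 and 50.4 CPM in SAP. The groups overlapped through CON 2 and SAP 1. The log2 fold change was -0.41 (SE 0.29; edgeR, adjusted p = 0.715), and -0.43 with the replicate block (adjusted p = 0.498). Over all nuclei Ccl28 was at 45.3, 55.8 and 50.5 CPM in CON and at 36.8, 34.4 and 19.0 CPM in SAP (log2 fold change -0.69, SE 0.40, or -0.34 without SAP 3; edgeR, adjusted p = 0.701), apart by library totals but overlapping after TMM normalization. Stem/TA-like nuclei were 24.0% ± 4.95 of CON and 13.5% ± 3.89 of SAP nuclei (SD, n = 3 each; exact permutation test, two-sided, p = 0.1), and the part of that share in the level over all nuclei was not tested. Aurkb (r = 0.90), a mitotic kinase, LOC108351415 (0.89) and Spdl1 (0.88), a spindle protein, were most like Ccl28 over classes.

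**Figure D4:**
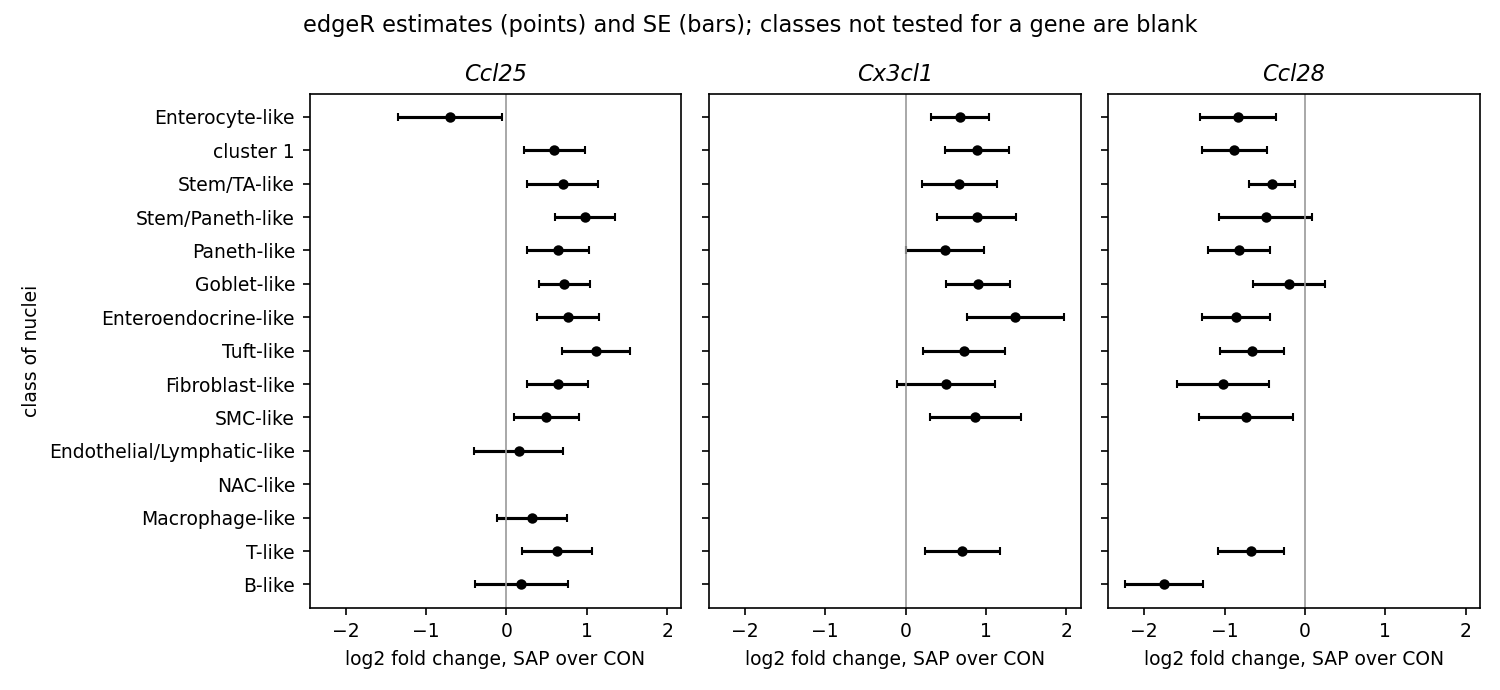
Log2 fold change of SAP over CON (points) with its SE (bars) from edgeR for Ccl25, Cx3cl1 and Ccl28 in each class, with blanks where the gene was not tested. Cx3cl1 was above 0 in 11 of 11 classes and Ccl28 below 0 in 12 of 12, while Ccl25 was below 0 in Enterocyte-like nuclei and above 0 in the other 13, and no estimate was called.

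The receptors of these chemokines were measured at low counts. Of 10 receptor genes, 6 passed the filter over all nuclei, 3 with a positive and 3 with a negative log2 fold change, and none was called (edgeR, 0 at an unadjusted p under 0.05, and 0 by DESeq2). The 3 with most UMIs were Ccr6, the Ccl20 receptor, highest in B-like nuclei at 43.7 CPM, Ccr9, the Ccl25 receptor, highest in T-like nuclei at 30.2 CPM, and Cxcr6, the Cxcl16 receptor, highest in T-like nuclei at 15.1 CPM. Over all nuclei Ccr6 lay between 3.07 and 7.75 CPM in CON and between 1.36 and 22.1 in SAP, with SAP 3 highest. That library held 813 of the 872 B-like nuclei of SAP. Ccr9 lay between 3.42 and 7.65 CPM in CON and between 4.33 and 11.7 in SAP, and Cxcr6 between 2.46 and 6.46 and between 2.00 and 4.69, so each overlapped.

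Of 24 other chemokine genes, 23 were in the tables and 17 were tested over all nuclei, 10 with a positive and 7 with a negative log2 fold change, none called by edgeR and 3 at an unadjusted p under 0.05. Their median log2 fold change was 0.02, equal to that of all genes tested at 2 decimals. The 3 with most UMIs were Ccl5, highest in T-like nuclei at 194 CPM, Ccl6, highest in Stem/Paneth-like nuclei at 104 CPM, and Ccl21, which guides cells into lymphatics, highest in Endothelial/Lymphatic-like nuclei at 267 CPM. Their log2 fold changes were -0.38 (SE 0.85), -0.51 (SE 0.67) and 0.35 (SE 0.89). Of 4 atypical receptors, which bind chemokines without classical signalling, 3 were tested and none was called. The proteases Adam10 and Adam17, which shed Cx3cl1 and Cxcl16 from the membrane, had log2 fold changes of 0.03 (SE 0.21) and -0.21 (SE 0.23).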

How the data were processed

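Ileal nuclei of 3 CON and 3 SAP rats were profiled by single-nucleus RNA sequencing, 1 library per rat. The authors counted UMIs with dnbc4tools and deposited raw counts per gene and barcode without normalization, and the processing notes name build mRatBN7.2 and Seurat 4.3.0. Quality control used the thresholds in the methods of the study and left more nuclei than the number stated there. Nuclei were clustered with scanpy 1.11.5 on 2000 variable genes, 30 principal components, Harmony re-implemented in numpy 2.4.6, and Leiden (leidenalg 0.10.2, 20 neighbours, resolution 0.8), giving 19 clusters. Chemokines, their receptors, defensins, MHC, Reg3 and mitochondrial genes and genes the study names were left out. A cluster was named at a mean log2 marker ratio of at least 0.5, a lead of at least 0.8 and at least 3 detected markers. The limits were chosen with the clusters in view, and Stem/Paneth was kept apart for carrying both marker sets. Doublets were kept, since Scrublet marked 0 nuclei, and removing the 5% with the highest scores was an alternative.

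UMIs were summed per library and class and tested with edgeR 4.0.16 under R 4.3.3 (filterByExpr, TMM, robust quasi-likelihood fit, Benjamini-Hochberg adjustment over all genes tested), with DESeq2 1.42.0 as an alternative. Both fold changes and SEs are on the log2 scale. The code was tested on simulated data. Named are the 10 genes, for each with at least 200 UMIs the 3 genes with the highest Pearson r of log2(CPM + 1) over classes, and the 3 receptors and 3 other chemokines with most UMIs where none was called. A gene that this rule names for Ccl20 is not reported here. The members and lists were chosen with earlier results of these data known. Each library is a separate rat. Over all nuclei, the deviations of libraries with the same replicate number from their group means correlated at 0.61, 0.22 and 0.44, and those of other pairs between -0.61 and 0.06. The labels name no pairing, and the numbers were treated as pairs in the replicate block on these correlations alone. Barcodes carry running cell numbers, so names shared between libraries are not shared sequences. Intervals cover counting error only, and those of UMI shares treat UMIs as independent although 1 nucleus can hold many.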

Additional observations from a re-analysis of the deposited data

Results flagged for a closer look

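Barcodes that failed quality control were used in no comparison. Cxcl10 in them was at 2.28, 1.86 and 2.57 CPM in CON 1, 2 and 3 and at 9.16, 2.66 and 5.13 CPM in SAP 1, 2 and 3, so each SAP library was above each CON library. The margin was small, since the lowest SAP value, 2.66 CPM in SAP 2, rests on 5 UMIs. Ccl28 lay apart in these barcodes too, with SAP below CON. It was at 56.4, 68.7 and 41.8 CPM in CON and at 28.1, 41.6 and 14.4 CPM in SAP. Here too the margin was small, with 114 UMIs behind the CON 3 value and 78 behind that of SAP 2. The failing barcodes numbered 17654 in CON 2 and 23026 in SAP 1, and between 1625 and 2443 in each other library. The share of all genes that lay apart in them is not given. Groups of 3 were not tested for outlying libraries.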

How the results depend on the processing

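The count of the 10 chemokines called over all nuclei was 0 and became 2 with DESeq2 (Cxcl1, log2 fold change 3.61, adjusted p = 0.00160; Cxcl2, 6.16, adjusted p = 0.0111), which called 193 of 28092 genes. The count of calls over the 15 classes was 1 and became 2 with DESeq2, 7 without a filter on low counts, and 0 at resolutions 0.4 and 1.2, and it lay between 0 and 1 when 1 library was left out. In the class where each gene was highest, the count of 1 became 2 without the filter and 0 at resolutions 0.4 and 1.2, and lay between 0 and 1 when 1 library was left out. Calls over all genes moved with these settings too. In the main fits 0.0236% of all gene tests in the 15 classes were called, at most 18 genes in 1 class. With DESeq2 the calls per class lay between 0 of 20848 and 265 of 23877 genes. Without the filter they lay between 4 of 20858 and 453 of 23890. The share over the 15 classes together is not given for these 2 settings. In SMC-like nuclei they were 18 of 8960, against 149 of 23502 with DESeq2 and 363 of 23513 without the filter. At resolutions 0.4 and 1.2 they were 1 of 12062 and 1 of 8955. The class with the highest level kept its name for 5 of the 10 genes at resolution 0.4, where classes merged, for 8 at resolution 1.2 and for 10 without the nuclei of highest doublet score. The replicate block, set from correlations in these same data, changed no call among the 10 chemokines. Cxcl1 in SMC-like nuclei had an adjusted p of 0.0159 with it (edgeR). Over all genes, calls in SMC-like nuclei rose with it from 18 to 56 of 8960. Cxcl1 in SMC-like nuclei was lost at resolutions 0.4 (log2 fold change 3.67) and 1.2 (4.50) and lay between 3.69 and 5.21 when 1 library was left out.

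Signs that changed were all of uncalled estimates: Ccl20 in Enterocyte-like nuclei was 0.14 with library totals only and 0.37 with the replicate block and lay between -0.49 and 1.09 when 1 library was left out, and Ccl25 over all epithelial nuclei was -0.046 at up to 1% mitochondrial UMIs. Leaving out 1 library gave between -1.61 and 0.11 for Cxcl9 over epithelial nuclei, between -0.12 and 1.33 for Cxcl10 over all nuclei, and between -1.18 and 0.41 for Ccl25 in Enterocyte-like nuclei. The causes were not tested. Restricting SMC-like nuclei to those without neutrophil markers, to at most 1% mitochondrial UMIs, or to at most 2 times the library's median UMIs, chosen after seeing the data, gave mean Cxcl1 of 136, 123 and 134 CPM in SAP, against 130, with SDs between 135 and 150 and SAP 1 highest each time. At most 1% mitochondrial UMIs left 10, 18 and 283 SMC-like nuclei in SAP 1, 2 and 3, at 293, 11.2 and 63.4 CPM on 5, 1 and 40 Cxcl1 UMIs.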

Other observations

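In barcodes that failed quality control, Cxcl2 was at 0, 0.0745 and 1.10 CPM in CON and at 49.4, 1.07 and 38.0 CPM in SAP, with SAP 2 again inside the CON range. Cxcl1 in these barcodes was at 0.381, 0.522 and 4.76 CPM in CON and 7.23, 1.6 and 10.9 CPM in SAP, and the groups overlapped. Ccl24, an eosinophil attractant named after its values were seen, was at 3.72, 3.68 and 6.08 CPM over all nuclei in CON and at 8.11, 15.5 and 11.6 CPM in SAP (log2 fold change 1.42, SE 0.39; edgeR, adjusted p = 0.545). Ccl24 was highest in Macrophage-like nuclei among the tested classes.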
